A study of Mus musculus with 35 samples.

Results

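At embryonic day (E) 9.5, mouse pro-HSC/HPC were compared with endothelial cells (EC), the far ends of the endothelial-to-hematopoietic transition on that day. The comparison took every E9.5 pro-HSC/HPC library (3) and every E9.5 EC library (4), so 7 of the 35 libraries of the study, and all 76018 peaks of its ATAC-seq count table, of which 67131 had enough counts to be tested. The peaks are regions of mm9, and no annotation of that build was used here, so regions are given by position and not by gene, and the labelled cell types were not checked against marker genes.

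In the endothelial-to-hematopoietic transition, a subset of embryonic endothelium, the hemogenic endothelium (HE), loses endothelial features and releases blood cells. The transcription factor Runx1 is required for it. The first blood cells of this lineage have not yet matured into transplantable hematopoietic stem cells (HSC), and the names pro-HSC, pre-HSC I and pre-HSC II stand for successive steps of that maturation, while HPC stands for hematopoietic progenitor cells. ATAC-seq cuts DNA with a transposase wherever chromatin is accessible, and the reads in a peak measure how accessible that region was.

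The groups set against each other were pro-HSC/HPC and EC at E9.5, with E9.5 HE (4 libraries) given beside them. E10.5 pre-HSC II, pre-HSC I, HE and EC (4 libraries each) gave levels that do not enter the E9.5 fold changes, although the filter and the estimate of the spread were shared by all samples. Among these, a pair of pre-HSC I libraries, numbers 2 and 3, agreed more closely than sampling noise allows. They may be a single library deposited under both numbers, and were counted as 1 sample. All groups carried the 23GFP transgene. In the published line of that name an intronic Runx1 enhancer drives GFP, so reads from transgene copies would be counted at the enhancer's own position, and which peak that is was not determined here. Each library was a pool of 1500 sorted cells amplified with 13 PCR cycles. Titles gave the day, since the tissue given for these E9.5 pools is labelled as E8.5 (PAS+VU). The labels do not tie pools to separate litters, and the spread behind each p-value may therefore be technical.

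Depth differed widely. The pro-HSC/HPC libraries held 3810683, 2266890 and 1232426 counts in peaks, and the EC libraries 7283508, 5954937, 1170513 and 3179759. Levels are given as CPM, the share of a peak in the scaled total of its library. On this scale 3 counts were worth 0.817 to 2.31 CPM in pro-HSC/HPC and 0.467 to 2.65 CPM in EC, so levels of about 1 CPM rest on very few reads. On log2 CPM, pairs of pro-HSC/HPC libraries had a Pearson r of 0.762 to 0.855 across peaks, pairs of EC libraries 0.838 to 0.943, and pairs of 1 library from each group 0.653 to 0.774. The ranges within the 2 groups overlapped, and the part of depth in r was not tested. Set against sampling noise, pairs of pro-HSC/HPC libraries differed by a chi-square of 3.365 to 3.603 for each degree of freedom. Pairs of EC libraries differed by 2.653 to 3.764. EC libraries 3 and 4 stood apart at chrX:103380576-103383382, the chromosome X peak with the most counts. Its level was 118, 170 and 404 CPM in the pro-HSC/HPC libraries and 150, 159, 5720 and 2560 CPM in the EC libraries. E9.5 HE library 4 held 9126 counts there, of 2876084 in all peaks, and HE library 3 held 1062 of 1839721. HE libraries 1 and 2 held 1177 of 7415315 and 777 of 6665147, so library 3 too was high for its depth. edgeR's quasi-likelihood test called the peak lower in pro-HSC/HPC (log2 fold change -3.23 ± 0.766, SE, adjusted p = 0.00217). EC libraries 1 and 2 lay within the range of the pro-HSC/HPC libraries there, so this call rests on EC libraries 3 and 4.

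Accessibility differed between pro-HSC/HPC and EC at 7932 peaks, which is 11.8% of those tested (edgeR's quasi-likelihood test, Benjamini-Hochberg adjusted p below 0.05). Accessibility was higher in pro-HSC/HPC at 3364 peaks (5.01%) and lower at 4568 (6.8%), so 42.4% of the called peaks were higher. The median ratio was larger at the higher peaks than at the lower peaks. The median log2 fold change was 2.68 at the higher peaks (quartiles 1.94 and 3.49) and -1.97 at the lower peaks (quartiles -2.53 and -1.52), against 0.125 over all peaks tested. Requiring a log2 change of 1 or more in size besides the test, 4.85% of tested peaks were higher and 6.51% lower, and with no overlap between libraries as well, 4.32% and 6.27%. A log2 change of at least 3 in size was reached by 1328 of the higher peaks (39.5%) and 560 of the lower peaks (12.3%). In bulk pools, fewer cells with an open region and less opening per cell cannot be told apart.

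The balance of higher and lower calls depended on scaling. With libraries scaled by their total counts alone, which moved the median of all peaks by 0.14 on the log2 scale, 4194 peaks were higher and 3868 lower. Without pro-HSC/HPC library 1, the deepest of its group, 5284 peaks were called, 1944 of them higher and 3340 lower. Without EC libraries 3 and 4, 1757 peaks were higher and 3581 lower.

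**Figure D1:**
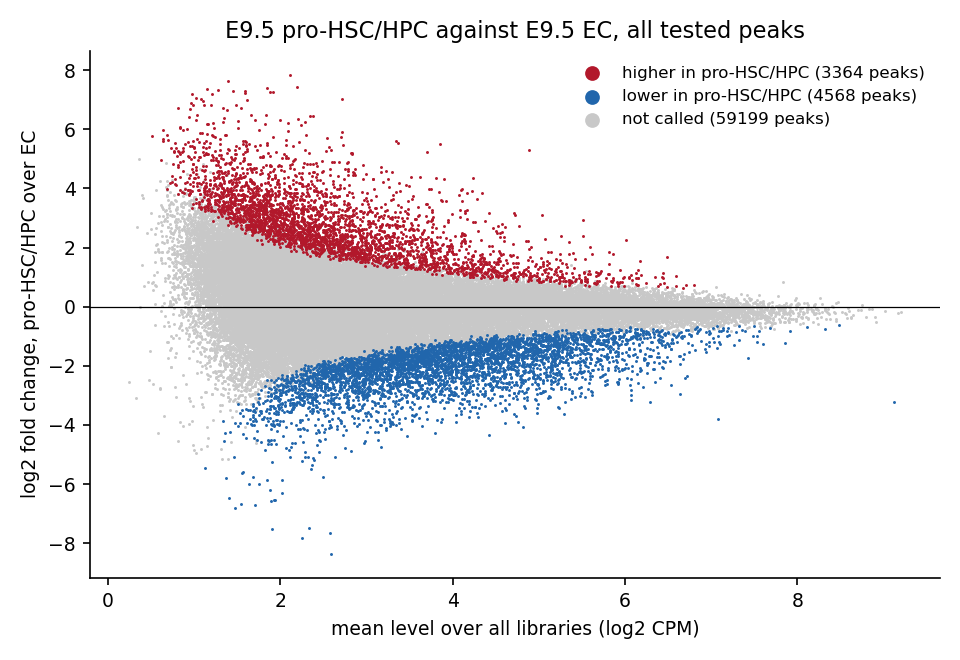
Each point is 1 of the 67131 tested peaks, with its mean log2 CPM on the x axis and its log2 fold change, pro-HSC/HPC over EC at E9.5, on the y axis. The median lies further from 0 for the 3364 higher peaks (2.68) than for the 4568 lower peaks (-1.97), while the extremes are 7.85 and -8.36.

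Many of the higher peaks had little signal in EC. The mean EC level was below 1 CPM at 1282 of the 3364 higher peaks (38.1%), while 7.65% of all tested peaks were that low in EC. The mean pro-HSC/HPC level was below 1 CPM at 384 of the 4568 lower peaks (8.41%), and 3.4% of all tested peaks were that low in pro-HSC/HPC. The mean pro-HSC/HPC level was at least 50 CPM at 153 of the higher peaks (4.55%), against 6.98% of all tested peaks. The mean EC level was that high at 1032 of the lower peaks (22.6%), against 8.29% of all tested peaks. These shares are descriptions with no test.

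The higher peak with the smallest adjusted p was chr12:12503086-12504471. Its level was 111, 135 and 107 CPM in the pro-HSC/HPC libraries, against 1.56, 3.05, 1.77 and 5.63 CPM in the EC libraries. Every pro-HSC/HPC library lay far above every EC library, and the log2 fold change was 5.29 ± 0.53 (SE, adjusted p = 2.43e-10). HE pools of the same day held 30.2, 49.9, 30.8 and 44.7 CPM there, between the other groups and overlapping neither.

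At chr4:82918972-82920268 the pro-HSC/HPC libraries held 44.1, 54.9 and 42.4 CPM and the EC libraries 3.74, 1.53, 0 and 2.11 CPM. The pro-HSC/HPC pools were close to each other here, and the log2 fold change was 4.37 ± 0.44 (SE, adjusted p = 2.43e-10). The peak chr15:63479584-63480381 held 56.9, 70.2 and 42.4 CPM in pro-HSC/HPC and 0, 0.763, 3.54 and 2.81 CPM in EC. It was close to closed in EC, and HE held only 9.38 ± 1.22 CPM (SD, n = 4).

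The largest log2 fold change among the 12 higher peaks chosen by the naming rule was 5.52 ± 0.61 (SE), at chr9:99082498-99083249. Its level was 34.6, 43.4 and 28.5 CPM in pro-HSC/HPC and 1.25, 0.382, 0 and 0.704 CPM in EC. HE stayed low at this peak, with 3.81 ± 1.23 CPM (SD, n = 4). Other named peaks were open in EC already: chr1:166065252-166066944 held 134, 129 and 93.3 CPM in pro-HSC/HPC and 19.5, 13.0, 15.9 and 14.4 CPM in EC, a log2 fold change of 2.92 ± 0.33 (SE). Across the 12, the rise was 7.57-fold to 46-fold, with adjusted p-values of 2.43e-10 to 3.36e-09.

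The lower peak with the smallest adjusted p was chr5:64546786-64548009. It held 10.3, 10.2 and 12.3 CPM in pro-HSC/HPC and 97.7, 88.5, 90.2 and 88.0 CPM in EC. Replicates hardly varied in either group, and the log2 fold change was -3.07 ± 0.31 (SE, adjusted p = 2.43e-10). HE held 41.3, 38.5, 36.5 and 38.4 CPM, again between the others and as tightly grouped.

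The strongest EC peak among the 12 lower ones was chr2:85003169-85004933, with 12.8, 26.8 and 41.6 CPM in pro-HSC/HPC and 342, 305, 423 and 382 CPM in EC. The pro-HSC/HPC pools differed more from each other here than at the other lower peaks described, yet all lay below every EC and HE pool, HE holding 89.2 ± 13.1 CPM (SD, n = 4). At chr5:106054638-106055573 the pro-HSC/HPC libraries held 4.63, 4.15 and 6.17 CPM and the EC libraries 90, 96.6, 69 and 70 CPM. This was the deepest loss of the 12, a log2 fold change of -4.07 ± 0.47 (SE). A smaller loss was seen at chr3:144305963-144307266, which still held 24.5, 21.2 and 19.3 CPM in pro-HSC/HPC, against 136, 96.9, 133 and 112 CPM in EC. Across the 12, the fall was 5.43-fold to 16.8-fold, with adjusted p-values of 2.43e-10 to 7.4e-09.

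**Figure D2:**
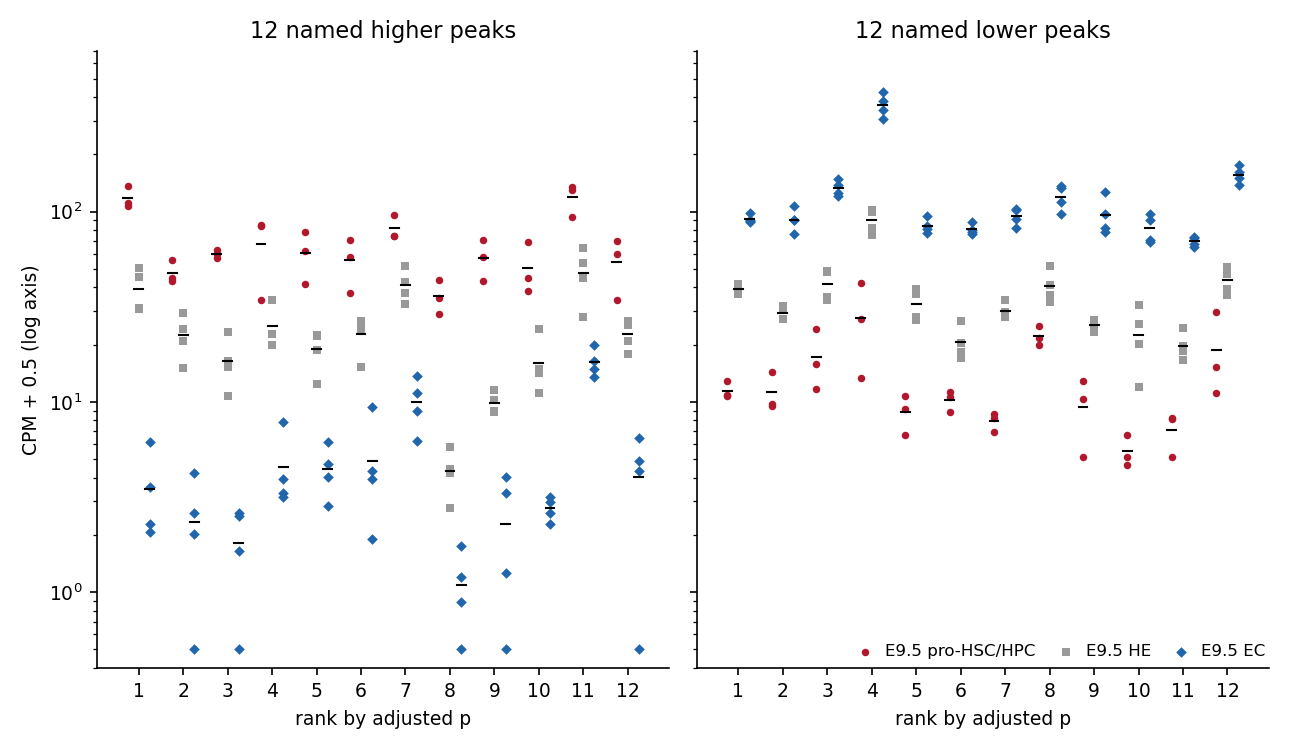
Level of the 12 higher and 12 lower named peaks in each library of E9.5 pro-HSC/HPC, HE and EC, on a log axis of CPM plus 0.5, with peaks ordered by rank. At every one of these peaks the pro-HSC/HPC and EC libraries do not overlap, which the naming rule required, and the HE mean lies between their means.

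Some regions had no counts at all in one group. Of the tested peaks, 97 had 0 counts in all 4 EC libraries, which together held 17588717 counts. Of these, 76 were called higher, as were 5.01% of all tested peaks. Of the 76, 56 had at least 2 counts in every pro-HSC/HPC library. In the other direction, 66 peaks had 0 counts in all 3 pro-HSC/HPC libraries, which held 7309999 counts together. Of these, 25 were called lower, as were 6.8% of all tested peaks. Peaks with 0 counts in a group passed the count filter through other groups, so these counts of calls are descriptions with no test. The EC group was the deeper of the groups by summed counts.

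The peaks given next were chosen after their values were seen, as those with the most counts in the open group. At chr1:127046296-127046760 the pro-HSC/HPC libraries held 59, 15 and 10 counts and the EC libraries none, so the level was at least 61.3-fold higher, taking 3 counts over the whole EC group as the floor. At chr14:26323864-26324120 the pro-HSC/HPC counts were 38, 21 and 9, at least 49.7-fold higher. Among peaks with no counts in pro-HSC/HPC, chr13:17960686-17961061 held 62, 67, 20 and 58 counts in EC, which makes it at least 31.5-fold lower. Floors of this kind cover counting error only and take each read as independent. If reads were counted in pairs, these bounds would be too high.

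HE lay between the ends of the transition at most called peaks. Set against EC, HE itself was higher at 912 peaks and lower at 821 (2.58% of those tested, 1.36% and 1.22% by direction). Pro-HSC/HPC set against HE were higher at 431 peaks and lower at 734 (1.74%, by direction 0.642% and 1.09%). Each step thus had fewer calls than the whole distance, and these comparisons share the HE, EC or pro-HSC/HPC libraries. Over the higher peaks, the median of the group means was 10.3 CPM in pro-HSC/HPC, 4.03 CPM in HE and 1.5 CPM in EC. Over the lower peaks it was 6.18 CPM in pro-HSC/HPC, 13 CPM in HE and 24.2 CPM in EC. Over all tested peaks the 3 groups were near each other, at 5.51, 5.15 and 4.96 CPM. The HE mean lay between the other means at 3011 of the higher peaks (89.5%) and 4331 of the lower peaks (94.8%). On a log2 scale with 0.5 CPM added, HE had covered a median of 46.5% of the distance from EC to pro-HSC/HPC at the higher peaks and 44.5% at the lower peaks. The called peaks were chosen on pro-HSC/HPC and EC values, which fixes the ends of these distances, so the HE position is a description with no test. Whether an HE pool mixes cells at each end or holds cells at a middle state was not tested.

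The same lists were followed on the other days. At E8.5, a day with no pro-HSC/HPC, the higher list had median levels of 2.78 CPM in HE and 2.96 CPM in EC, and the lower list 18 CPM in HE and 12.9 CPM in EC. Neither list thus showed, at E8.5, the HE position seen at E9.5. At E10.5 the higher list had 11.4 CPM in pre-HSC II, 6.67 CPM in pre-HSC I, 3.76 CPM in HE and 2.06 CPM in EC. The lower list had 4.46, 7.17, 8.92 and 18.4 CPM in those groups.

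**Figure D3:**
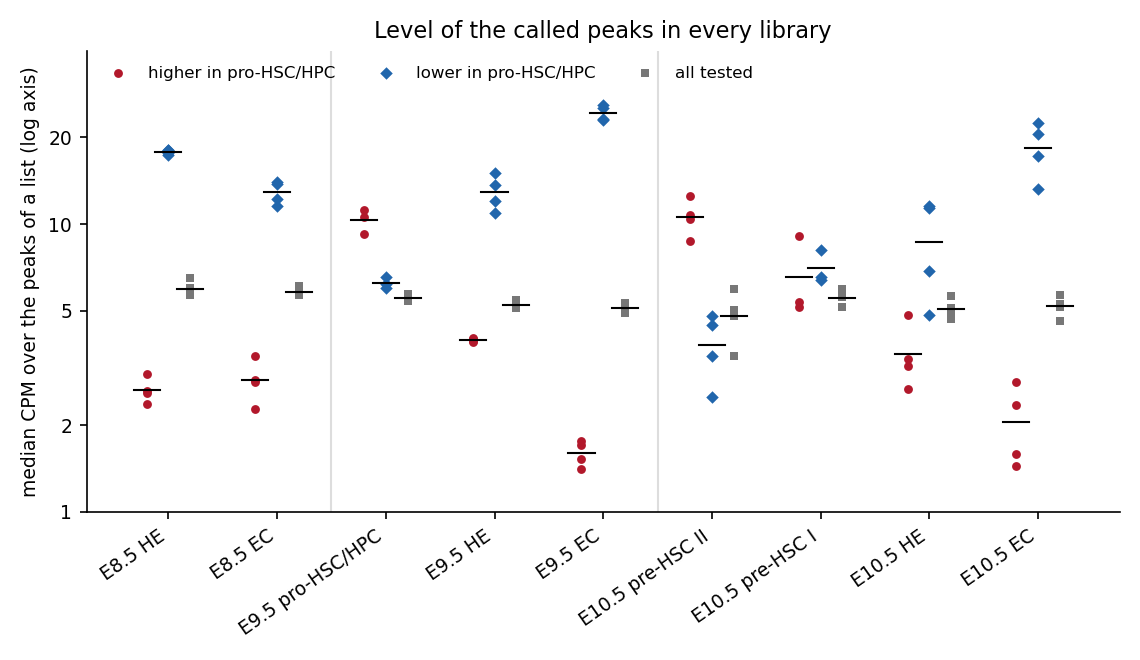
Median CPM of each library over the 3364 higher peaks, the 4568 lower peaks and all tested peaks, by group and day, with points for libraries and a bar for their mean. At E10.5 the order of the groups is that of E9.5, with pre-HSC II farthest from EC in both lists.

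The E10.5 libraries gave a measure of the same regions in samples whose levels do not enter the E9.5 fold changes, the filter and spread being common to both days. In pre-HSC II against E10.5 EC, 16983 peaks were called (25.3%), 9.14% of tested peaks being higher and 16.2% lower. Of the peaks higher in pro-HSC/HPC at E9.5, 2006 were higher in pre-HSC II too, which is 59.6% of the E9.5 list and 32.7% of the E10.5 list, and 26 were lower. Of the peaks lower in pro-HSC/HPC, 3319 were lower in pre-HSC II, which is 72.7% of the E9.5 list and 30.6% of the E10.5 list, and 6 were higher. The median log2 fold changes at E10.5 were 2.13 over the higher list and -2.01 over the lower list, against -0.137 over all peaks.

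In pre-HSC I against E10.5 EC, 3984 peaks were called (5.93%), 2.18% higher and 3.75% lower. The higher list held 963 of its higher peaks, 28.6% of the E9.5 list and 65.8% of the E10.5 list. The lower list held 1804 of its lower peaks, 39.5% of the E9.5 list and 71.6% of the E10.5 list. No peak was called in opposite directions on the 2 days. The median log2 fold changes were 1.54 and -1.31, against 0.0427 over all peaks. Of the whole higher list, 28.6% was called higher while 95.5% had a positive value, against 52.4% of all peaks. Most peaks of that list not called in pre-HSC I thus leaned the same way too. Taking both directions, 34.9% of the called peaks were called the same way in pre-HSC I, and 23% without pre-HSC I library 4.

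E10.5 HE differed from E10.5 EC at 1533 peaks (2.28%), 0.717% of tested peaks being higher and 1.57% lower. Of the higher list 229 peaks were higher in HE (6.81% of the E9.5 list, 47.6% of the E10.5 list) and 4 were lower. Of the lower list 858 were lower in HE (18.8% and 81.6%) and 0 were higher. In both directions together, 13.7% of the called peaks were called the same way, a share that was 5.95% and 7.43% without HE libraries 1 and 4, and 6% and 7.21% without EC libraries 2 and 3 of that day.

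The named peaks showed the pattern one by one. At chr12:12503086-12504471 the level was 64.7 ± 25 CPM in pre-HSC II (SD, n = 4), 42.5 ± 31.4 CPM in pre-HSC I (n = 3) and 2.46 ± 2.91 CPM in E10.5 EC (n = 4). At chr2:85003169-85004933 it was 11.2 ± 10.2 CPM in pre-HSC II, 51.9 ± 28.3 CPM in pre-HSC I and 242 ± 78.9 CPM in E10.5 EC, with the same n. Both kept their E9.5 direction, and pre-HSC pools varied more among themselves at the first peak than pro-HSC/HPC pools did. All of the named peaks, 12 higher and 12 lower, were called in the E9.5 direction in pre-HSC I and in pre-HSC II.

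**Figure D4:**
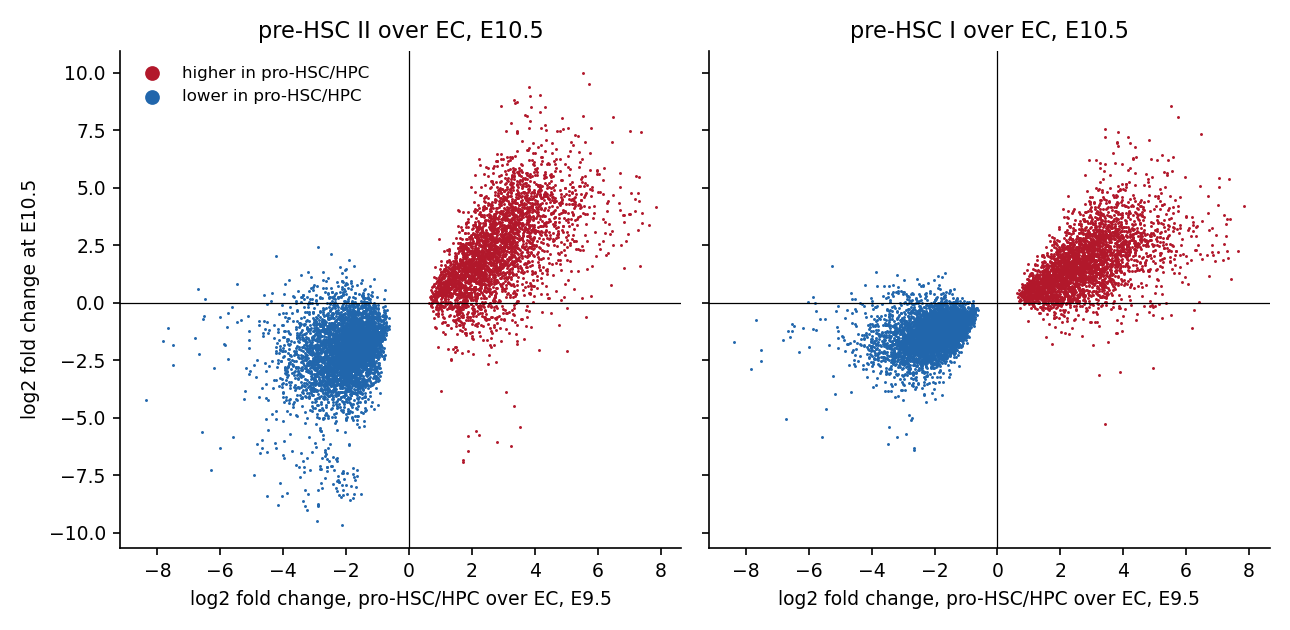
Log2 fold change of each called peak at E9.5, pro-HSC/HPC over EC, on the x axis, and at E10.5 on the y axis, pre-HSC II over EC in one panel and pre-HSC I over EC in the other. Most points lie in the quadrants of equal sign, with medians of 2.13 and -2.01 for pre-HSC II and 1.54 and -1.31 for pre-HSC I.

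Whether the difference from EC changed between days was tested in the same fit. Between pro-HSC/HPC at E9.5 and pre-HSC I at E10.5, edgeR called 0 peaks (0%), with a smallest adjusted p of 0.188, 2837 peaks at an unadjusted p below 0.05, and 4 peaks called by DESeq2. Over the named peaks the log2 difference ranged from -3.01 to 1.89 with SEs of 0.38 to 1.3, so sizeable differences would have gone uncalled, and the groups are not shown to be alike. At 23 of these 24 peaks it had the sign of the E9.5 change, which a choice by E9.5 values favours. The exception was the -3.01, at chr9:99082498-99083249, where E10.5 EC held 0 CPM. The labelled tissue also changes between E9.5 and E10.5, so day and tissue cannot be told apart here.

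Between pro-HSC/HPC and pre-HSC II, the difference from EC changed at 600 peaks (0.894%). It was more positive in pro-HSC/HPC at 519 peaks (0.773%) and more negative at 81 (0.121%). At chr17:10582608-10584086 the level was 118 ± 21.5 CPM in pro-HSC/HPC and 182 ± 25.5 CPM in EC at E9.5 (SD, n = 3 and 4), against 10.8 ± 4.1 CPM in pre-HSC II and 145 ± 35.4 CPM in EC at E10.5 (n = 4 each). Both groups lay below their EC, pre-HSC II by far more, a log2 difference of 3.15 ± 0.43 (SE, adjusted p = 1.62e-05).

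At chr18:60820717-60821920 the E9.5 levels were 44.0 ± 11.9 CPM in pro-HSC/HPC and 21.9 ± 3.55 CPM in EC, and the E10.5 levels 1.99 ± 2.33 CPM in pre-HSC II and 32.1 ± 14.6 CPM in EC. Here the direction turned, with a log2 difference of 4.84 ± 0.60 (SE, adjusted p = 1.54e-06). At chr3:133289404-133290584 it turned the other way, with 6.26 ± 0.773 CPM in pro-HSC/HPC and 28.8 ± 6.22 CPM in EC at E9.5, and 20.9 ± 15.0 CPM in pre-HSC II and 6.49 ± 2.61 CPM in EC at E10.5. The pre-HSC II libraries were shallow, with 456770 to 1241216 counts in peaks. On unscaled totals 3 counts were worth 2.42 to 6.57 CPM in them. The 1.99 CPM at chr18:60820717-60821920 thus rests on very few reads.

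The count of 600 leaned on single libraries and on scaling. It was 370 and 264 without E9.5 EC libraries 1 and 4, 349 and 338 without pro-HSC/HPC libraries 1 and 2, 323 and 263 without E10.5 EC libraries 2 and 3, and 390 and 1086 without pre-HSC II libraries 2 and 4. The split into more positive and more negative was 231 and 128 with size factors from DESeq2's method, 338 and 125 with total counts, 220 and 165 with cyclic loess and 469 and 428 with the DESeq2 test. The surplus of positive differences thus varied with the scaling and the test.

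Some of the called peaks lay close together and changed in the same direction. Taking called peaks of 1 direction no more than 50 kb apart, runs of at least 4 peaks numbered 44 in the higher direction, with 227 peaks (6.75% of the higher list), and 186 in the lower direction, with 1028 peaks (22.5% of the lower list). No peak called in the other direction lay inside 40 of the higher runs and 167 of the lower runs. Whether runs are more frequent than the spacing of peaks would give was not tested.

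The lower run with the most called peaks spanned 246 kb, chr5:76230770-76476369, where 21 of 34 tested peaks were lower and none higher. Summed over these 21 peaks, the level was 263, 263 and 255 CPM in pro-HSC/HPC and 937, 1070, 806 and 823 CPM in EC. The choice of called peaks fixes the direction of such sums, here and for the other runs, and the HE mean was 637 CPM. Over all 34 tested peaks the sum was 310, 317 and 300 CPM in pro-HSC/HPC and 1010, 1150, 870 and 898 CPM in EC. The 13 peaks not called had a median log2 fold change of -0.72, from -2.81 to 0.97. Log2 fold changes ran from -4.35 to -1.01. The deepest loss was at chr5:76337643-76338561, with 3.81, 1.85 and 1.54 CPM in pro-HSC/HPC and 53.9, 52.9, 72.5 and 43.3 CPM in EC. Of the 21 peaks, 19 were also lower in pre-HSC II and 10 in pre-HSC I. The shares were 72.7% and 39.5% over the whole lower list, and 16.2% and 3.75% over all tested peaks.

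**Figure D5:**
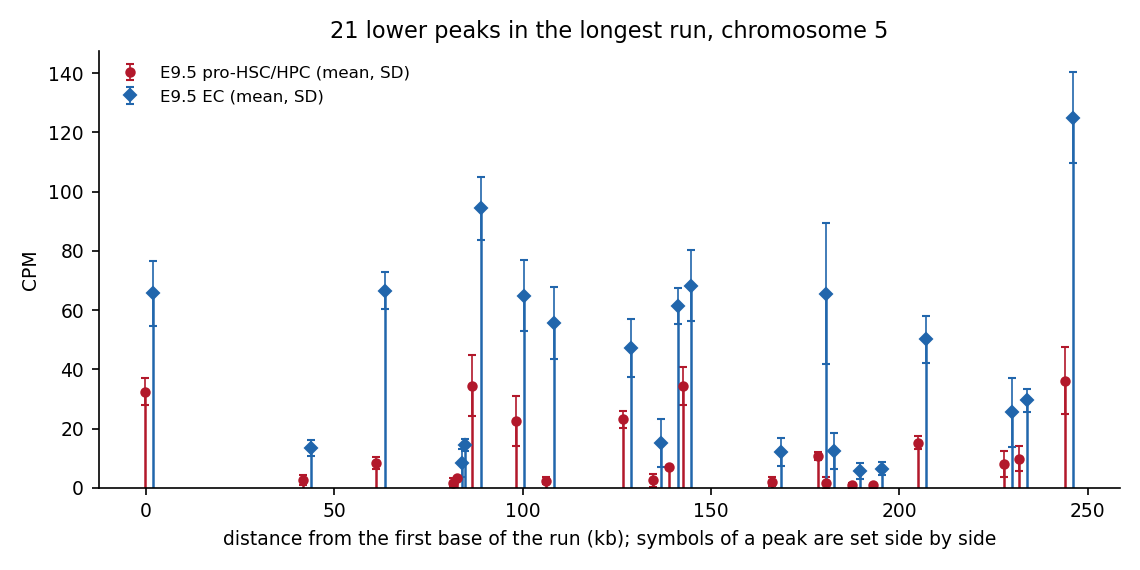
Mean and SD of CPM in pro-HSC/HPC and EC at the 21 lower peaks of the chromosome 5 run, by distance in kb along the run. The peaks drawn, which are the called ones, have log2 fold changes from -4.35 to -1.01, and the 13 tested peaks that were not called are not drawn.

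A run of 13 lower peaks among 43 tested lay at chr9:32311441-32524290. Over the 13 its sum was 280, 259 and 185 CPM in pro-HSC/HPC and 773, 894, 775 and 813 CPM in EC. Over all 43 tested peaks the sum was 868, 787 and 647 CPM in pro-HSC/HPC and 1550, 1650, 1360 and 1490 CPM in EC. At its first peak, chr9:32311441-32312333, the level was 14.7, 9.23 and 4.63 CPM in pro-HSC/HPC and 93.8, 98.3, 117 and 123 CPM in EC. The 30 peaks that were not called had a median log2 fold change of -0.51, from -1.81 to 1.38, and 23 of them had a negative value. At chr2:30508073-30640627, 11 of 22 peaks were lower. Their sums were 88.5, 105 and 153 CPM in pro-HSC/HPC and 318, 363, 294 and 309 CPM in EC. Over all 22 tested peaks the sums were 146, 177 and 267 CPM in pro-HSC/HPC and 448, 530, 421 and 438 CPM in EC.

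The largest higher runs lay side by side on chromosome 4, at chr4:144995477-145067662 (17 of 29 tested peaks) and chr4:145135778-145180144 (16 of 23). Summed over the called peaks of both, the level was 293, 635 and 482 CPM in pro-HSC/HPC and 69.6, 46.6, 146.8 and 97.8 CPM in EC. The highest EC sum was in the shallowest EC library, and E10.5 HE library 4, also shallow, held 563 CPM against 57.3 to 184.1 CPM in the other HE libraries of that day. The part of depth in these runs was not tested. Of their called peaks 11 and 9 were also called higher in pre-HSC II, and none in pre-HSC I. The shares were 59.6% and 28.6% over the whole higher list, and 9.14% and 2.18% over all tested peaks. The pre-HSC I samples were uneven, with sums of 109, 341 and 350 CPM, against 65.2 to 158.9 CPM in E10.5 EC. In E8.5 EC the sums were 185.1 to 300 CPM. Over all 29 tested peaks of the first run, E9.5 sums were 206, 383 and 288 CPM in pro-HSC/HPC and 56.2, 42.4, 109 and 89.4 CPM in EC. Over all 23 of the second, they were 191, 404 and 314 CPM in pro-HSC/HPC and 47.7, 35.3, 110 and 66.8 CPM in EC.

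Another higher run, chr19:43604695-43734815, had 8 of 20 peaks called. Over the 8 its sum was 148, 183 and 106 CPM in pro-HSC/HPC and 43.3, 52.5, 44.2 and 31.3 CPM in EC. The HE mean of 144 CPM was near the pro-HSC/HPC level. Over all 20 tested peaks the sum was 246, 272 and 186 CPM in pro-HSC/HPC and 113, 120, 112 and 78.1 CPM in EC. The 12 peaks not called had a median log2 fold change of 0.596. At E10.5, 2 of the 8 peaks were higher in pre-HSC I, 0 in pre-HSC II and 2 in HE. The shares in those groups were 28.6%, 59.6% and 6.81% over the whole higher list. Over all tested peaks they were 2.18%, 9.14% and 0.717%.

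The lists also differed in what the test did not use. The median width was 547 bp for higher peaks, 795 bp for lower peaks and 547 bp for all tested peaks. Peaks of at least 2000 bp made up 1.52% of the higher list, 4.2% of the lower list and 3.29% of all peaks, and peaks under 300 bp made up 14.2%, 5.08% and 16.1%. Width moved with level, the lists having a median mean CPM of 5.17, 13.4 and 5.43 over all libraries, and the part of level in the difference of widths was not tested. By chromosome, the share of tested peaks that were higher ran from 3.75% on X to 6.33% on 13, leaving out Y with 9 tested peaks and 0 called, and the share that were lower from 5.45% on 4 to 9.01% on 18.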

How the data were processed

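Raw counts of reads in peaks, the same peaks for each of the 35 libraries, came from a single table that the authors deposited. The build was mm9, and the software named was DiffBind 1.14.6, MACS2 2.0.1, deepTools, bedtools 2.17.0, SAMtools, Bowtie 1.0.0 and Trim Galore 0.3.1, per the submitters' processing notes. The sources used here do not give what each tool did, whether reads were shifted to the transposase's cut, or whether positions count from 0 or 1. Among counts of 10 to 49, up to 78.2% in a library were even numbers, so reads may have been counted in pairs.

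Groups came from the sample titles. Pre-HSC I libraries 2 and 3 differed by a chi-square of 0.4606 for each degree of freedom and entered as their mean, which left 34 samples. After filterByExpr removed 8887 peaks, all 34 samples were fitted together (edgeR 4.0.16, TMM scaling, glmQLFit and glmQLFTest, two-sided, a mean per group, 25 residual degrees of freedom, common dispersion 0.147, R 4.3.3). Differences of differences were contrasts in that fit. The SE is the size of the log2 fold change divided by the square root of F. CPM uses TMM-adjusted totals.

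Named peaks are the 12 per direction with the smallest adjusted p among those whose log2 fold change was at least 1 in size with no overlap between libraries (5 per direction, by adjusted p, for differences of differences), and the 3 runs per direction with the most peaks. The comparison, lists and rules were chosen with earlier results of these data known. Alternatives were other scalings (limma 3.58.1 for loess), DESeq2 1.42.0, no filter, only the groups compared, a replicate block, thinning to equal totals and leaving libraries out. Gene lists, markers, distances to genes, base composition and motifs were not analysed here, since no genome or annotation of mm9 was used.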

Additional observations from a re-analysis of the deposited data

Results flagged for a closer look

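The CPM of EC library 1 at the higher peak chr7:19901535-19902531 was 7.32, farther from the other EC libraries than Dixon's 95% critical value allows. It was the only one of 50 groups of values tested, where chance alone would give about 2.5.

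The difference from EC changed between pro-HSC/HPC at E9.5 and pre-HSC II at E10.5 at 600 peaks by the test of the difference itself (edgeR's quasi-likelihood test with Benjamini-Hochberg adjustment). The log2 differences at the named peaks that were more positive in pro-HSC/HPC were 4.84 at chr18:60820717-60821920, 3.15 at chr17:10582608-10584086, 5.59 at chr6:119368597-119369531, 4.4 at chr15:36419295-36420387 and 3.19 at chr14:104284041-104285244. At the last of these the level was 44.3 CPM in pro-HSC/HPC and 37.5 CPM in EC at E9.5, and 6.16 CPM in pre-HSC II and 56.2 CPM in EC at E10.5. The log2 differences at those that were more negative were -3.78 at chr3:133289404-133290584, -2.79 at chr3:148425106-148426455, -2.35 at chr6:91662165-91663861, -3.91 at chr1:64124940-64125674 and -2.7 at chr12:119614919-119615999. At chr6:91662165-91663861 the level was 21 CPM in pro-HSC/HPC and 37.2 CPM in EC at E9.5, and 63.0 CPM in pre-HSC II and 20.6 CPM in EC at E10.5.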

How the results depend on the processing

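The count of 7932 called peaks stayed within 1.5 times under other scalings (7686 with cyclic loess to 8065 with DESeq2's size factors), no filter (7956), DESeq2 (10066), only the groups compared (11500), thinning (5627) and without EC libraries 3 and 4 (5338). Leaving out 1 library gave 5284 to 7129. Of the main calls, 61.8% (without pro-HSC/HPC library 1) to 99.7% were called again, and 0 of those called again changed sign. The sign of calls that were lost was not checked. The 12 higher and 12 lower named peaks were called under every alternative run. The difference of differences with pre-HSC I had 4 calls with DESeq2, 1 when the near-identical pair of pre-HSC I libraries entered as 2 samples, and 0 to 1 leaving out a library. That with pre-HSC II had 359 calls with DESeq2's size factors, 385 with cyclic loess, 101 thinned, 143 without E9.5 EC libraries 3 and 4, and 263 to 1086 leaving out a library. Those scalings moved its median over all peaks by -0.284 and -0.336, and total counts by -0.209 (log2). On thinning, 4 of its named peaks lost their call. Thinning and left-out libraries leave fewer counts, and the cause of these moves was not tested. The 1086 calls came without pre-HSC II library 4, the deepest of its group (1241216 counts). The share called the same way at E10.5 ranged over left-out libraries from 23% to 41.7% for pre-HSC I, 59.5% to 74% for pre-HSC II and 5.95% to 18.1% for HE.

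The main fit did not pair samples by replicate number. Deviations of pro-HSC/HPC and EC libraries of the same number had correlations of 0.0415 to 0.094. Those of different numbers ran from -0.0624 to 0.0486. All of these were negative except the highest, pro-HSC/HPC library 3 with EC library 4. Whether libraries of the same number share an effect was not tested. With a replicate block, among only the groups compared, 9772 peaks were called (3570 higher, 6202 lower), and the differences of differences had 3 and 412 calls. Depth limits peaks of about 1 CPM, where 3 counts are worth up to 2.65 CPM in the E9.5 pro-HSC/HPC and EC libraries. In the pre-HSC II libraries 3 counts are worth 2.42 to 6.57 CPM on unscaled totals, so levels of a few CPM are limited there.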
